A study of Mus musculus with 22 samples.

Results

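The genes described here encode the classical axon guidance cues and their receptors: the Slit ligands and Robo receptors, the netrins with Dcc, Neo1 and the Unc5 receptors, the netrin-Gs, the semaphorins with the neuropilins and plexins, and the ephrins with the Eph receptors. Members were taken from both deposited score tables by a rule on gene symbols that uses no score, though the families were chosen with earlier results of these data known. The rule found 73 of the 15705 genes of the 6-month table and 70 of the 15192 genes of the 12-month table. All 70 were also in the 6-month table, while Efna3, Efna5 and Unc5cl were listed at 6 months alone. Unc50 and Unc5cl matched the letters of the rule but belong to other protein families. They are counted among the members throughout, and without them the lists hold 71 and 69 genes.

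Growth cones of developing axons read these cues through their receptors, which act on the actin cytoskeleton to attract or repel the axon. Slits, acting through Robo receptors, are repellents at the midline, netrins attract through Dcc and repel with Unc5 receptors, semaphorins signal through plexins with or without a neuropilin, and ephrins and Eph receptors signal in both directions between touching cells. Many of these genes remain expressed in the adult cortex, where they are known for roles in dendritic spines and synapses.

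The study asked how a transgene that disturbs the U1 small nuclear ribonucleoprotein affects splicing in mouse cortex, alone or beside amyloid transgenes. The particle recognises 5′ splice sites. A mutant tau transgene was studied in separate mice, and no group carried it together with the U1-disturbing transgene. At 6 months there were 3 libraries each of WT, N40K, 5xFAD and dTg mice, littermates from a mating of carriers of a single copy of each transgene. The N40K transgene encodes a truncated form of U1-70K, which is part of that particle. The 5xFAD mouse is a model of amyloid deposition whose transgenes are driven by the neuronal Thy1 promoter, and dTg mice carry both the N40K and 5xFAD transgenes. At 12 months there were 4 WT and 6 Tau P301S libraries, littermates of a mating of Tau P301S carriers with WT mice, and the Tau P301S mouse carries a mutant human tau transgene. The promoters of the N40K and tau transgenes, and whether each library came from 1 animal, are not given in the sources used here. The p-values therefore measure the spread between these libraries.

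Each value is an Sd score, deposited as 1 ratio with 3 decimals for every gene in every library. It is taken here to measure splicing deficiency, with a higher score where more signal is unspliced. The score is not an expression level. Its formula and the read depth are not given in the sources used here, and no interval for counting error is printed. Cortex was sequenced in bulk, so a change in the cells that contribute a transcript and a change within those cells cannot be told apart. All 8 markers of excitatory neurons and all 6 of inhibitory neurons were listed in both tables, but a score does not show how abundant a marker is. Over all genes, the medians of N40K replicate 1 and dTg replicate 2 were the highest of their groups, at 0.036 and 0.035 against 0.029 to 0.03 in WT. N40K replicate 1 was also the single highest of its group in 41 of the 50 members with such a library, or 82%, against 66.5% of all genes, and its part in the results was tested by leaving it out.

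Most members had low scores. At 6 months the median over members of the mean score of 12 libraries was 0.0112, against 0.0315 over all genes. A mean score under 0.02 was found in 41 of 73 members, or 56.2%, against 38.6% of all genes, and a mean score of at least 0.1 in 10 members, or 13.7%, against 24.1%. Because the last decimal is 0.001, the lowest scores moved in few steps. Neo1, Sema6d and Unc5b stood at 0.002 in all 12 libraries and Epha4, Robo2, Sema3a and Sema5a at 0.001, so 9.59% of members had 1 constant score, against 1.73% of all genes. The scores of 17 members, or 23.3%, spanned no more than 1 step, against 7.37% of all genes.

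Among the Slits and Robos, mean scores over the 12 libraries of 6 months were 0.00492 in Slit1, 0.00217 in Slit2 and 0.00425 in Slit3, secreted ligands of the Robo receptors. The neuronal receptors Robo1 and Robo2 stood at 0.003 and 0.001. Robo3, which lets commissural axons cross the midline, stood far above them at 0.119, and Robo4, the endothelial member, at 0.0376.

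In the netrin system, Ntn3 had the highest score of all members at 1.13, followed by Ntn5 at 0.297, whereas Ntn1 and Ntn4 stood at 0.00358 and 0.00417. The attractive receptor Dcc stood at 0.00867 and its relative Neo1 at 0.002. Of the repulsive receptors, Unc5a reached 0.0152, and Unc5b, Unc5c and Unc5d lay between 0.002 and 0.0045. The membrane-anchored netrin-G ligands differed from each other, with Ntng2 at 0.0393 and Ntng1 at 0.00217.

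Within the semaphorins, the secreted class 3 ran from 0.001 in Sema3a to 0.144 in Sema3b, with Sema3c, Sema3d and Sema3e at 0.00108 to 0.00217, Sema3f at 0.0182 and Sema3g at 0.0362. The transmembrane class 4 ran from 0.0428 to 0.114 in 5 of its 6 members, while Sema4d stood at 0.00392. The 5 were Sema4c at 0.114, Sema4b at 0.0999, Sema4g at 0.0757, Sema4a at 0.0583 and Sema4f at 0.0428. In class 5, Sema5a stood at 0.001 and Sema5b at 0.00892. In class 6, Sema6c at 0.053 and Sema6b at 0.0493 stood above Sema6a at 0.00625 and Sema6d at 0.002, and the GPI-anchored Sema7a stood at 0.0167. The semaphorin co-receptors Nrp1 and Nrp2 had 0.00383 and 0.0106. Among the plexins, the semaphorin receptors, Plxna3 was the highest at 0.227, the 3 plexin Bs lay between 0.0604 and 0.0893, Plxnd1 and Plxna1 stood at 0.034 and 0.0303, and Plxna2, Plxnc1 and Plxna4 stood under 0.01.

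The transmembrane ephrin Efnb3 had 0.142, Efnb1 0.0248 and Efnb2 0.00942, and the GPI-anchored ephrins Efna2, Efna1 and Efna3 had 0.104, 0.042 and 0.0389, with Efna5 at 0.00125. Of the ephrin-A receptors, Epha1 was the highest at 0.261 and Epha10 second at 0.104. Epha8 and Epha2 followed at 0.0398 and 0.0218, and the other 5 stood between 0.001 and 0.00367. Of the ephrin-B receptors, Ephb3 and Ephb6 had 0.0398 and 0.0353, Ephb4 and Ephb2 0.0112 and 0.0107, and Ephb1 0.00133. Unc50 stood at 0.0597 and Unc5cl at 0.0172.

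Members with longer introns had lower scores. GENCODE M21 gave an intron length for 70 of the 73 members by Ensembl identifier, with Efna5, Ntng1 and Ntn3 unmatched. The median member held 53.5 kb of intron, against 20.7 kb over all matched genes, and 32 members, or 45.7%, held at least 100 kb, against 13.9% of all genes. Robo1 and Robo2 held 721 and 503 kb, and Robo3 and Robo4 10.7 and 7.92 kb. Dcc held the most of all members, 1084 kb. On log scales, members' scores and intron lengths had a Pearson r of -0.874 and a Spearman rho of -0.86 across 70 genes, against -0.626 and -0.62 across 14823 genes. The points share their libraries, and whether the score already divides by length was not given, so scores of different genes are set side by side only as deposited.

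**Figure D1:**
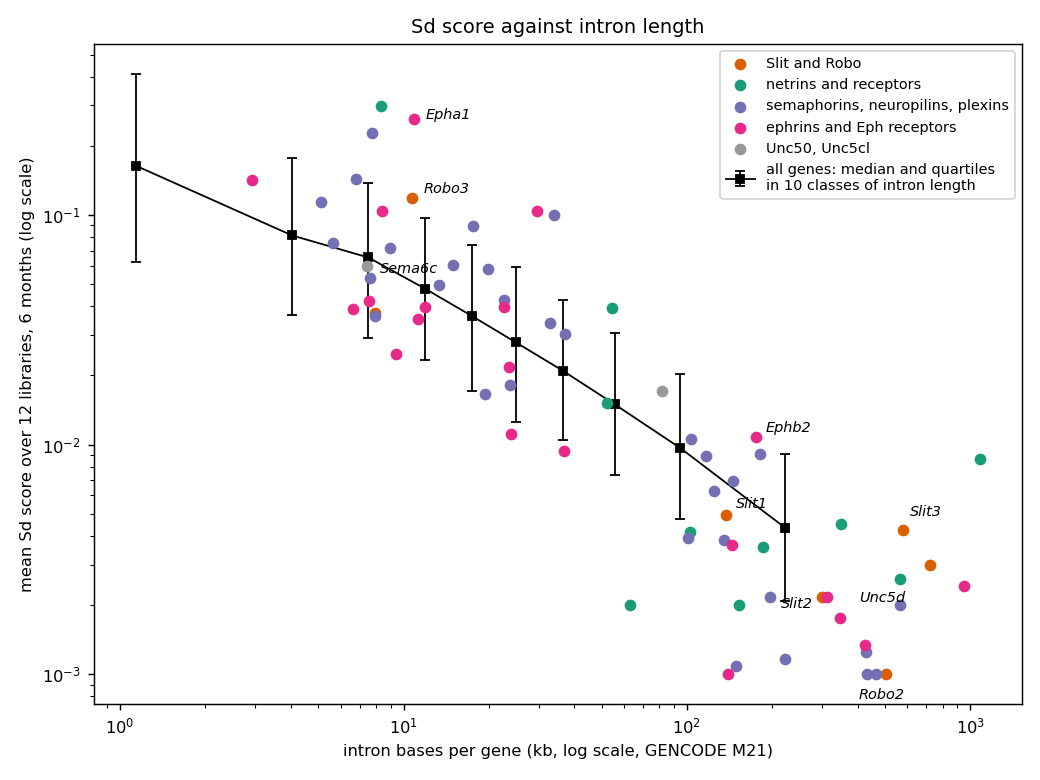
Each dot is a member, with its intron length in kb on the horizontal log axis and its mean Sd score over the 12 libraries of 6 months on the vertical log axis, and colours mark the ligand and receptor systems. Squares and bars are the median and quartiles of all genes in 10 classes of intron length, and scores are lower at longer introns, as in Robo3 at 0.119 with 10.7 kb and Robo2 at 0.001 with 503 kb, while Dcc at 1084 kb stands at 0.00867.

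Comparing the 6 libraries with N40K (N40K and dTg) with the 6 without it (WT and 5xFAD), averaged over 5xFAD status, 5 members rose and 0 fell: Slit3, Slit1, Ephb2, Unc5d and Sema6c. These were 6.85% of the members, while 10.8% of all genes rose and 0.936% fell (limma, with p-values adjusted over all genes by Benjamini-Hochberg and called under 0.05). At an unadjusted p under 0.05, 12 members were higher, or 16.4%, against 26% of all genes, so the members' share lay below the background by both counts. The median log2 difference of the members was 0.10 against 0.09 over all genes. The median score over the members ran from 0.009 to 0.013 in WT libraries, 0.011 to 0.016 in N40K, 0.009 to 0.014 in 5xFAD and 0.012 to 0.016 in dTg, so the genotypes overlapped. Differences lay above 0 in 57 members, below 0 in 9 and at 0 in 7, so 78.1% were above 0 against 72% of all genes. Here and below, differences are on the scale of log2(score + 0.002), so folds of very low scores are understated.

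Slit3 (ENSMUSG00000056427) scored 0.002 in all 3 WT libraries and 0.003, 0.003 and 0.002 in 5xFAD. With N40K it scored 0.007, 0.005 and 0.005 in N40K mice and 0.006, 0.008 and 0.006 in dTg mice. All 6 carriers lay above all 6 non-carriers. The mean was 0.00617 ± 0.00117 in carriers and 0.00233 ± 0.000516 in non-carriers (SD, n = 6 each), a difference of 0.91 on the log2 scale or 1.88-fold, with a limma adjusted p of 0.00261.

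Slit1 (ENSMUSG00000025020) scored 0.004, 0.003 and 0.003 in WT and 0.003, 0.004 and 0.003 in 5xFAD, against 0.007, 0.005 and 0.005 in N40K and 0.006, 0.009 and 0.007 in dTg mice. The groups again did not overlap. Carriers averaged 0.0065 ± 0.00152 and non-carriers 0.00333 ± 0.000516 (SD, n = 6 each), a 1.58-fold difference with a limma adjusted p of 0.0105. Slit1 and Slit3 were the members without overlap between carriers and non-carriers, 2 of 73 or 2.74%, against 5.11% of all genes.

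The third ligand, Slit2 (ENSMUSG00000031558), stayed at 0.002 in all 6 non-carriers and in 4 of 6 carriers. N40K replicate 1 and dTg replicate 1 stood 1 step higher at 0.003, a log2 difference of 0.11 with an adjusted p of 0.37. The log2 ratio of Slit3 to Slit2 within a library was 0.91 ± 0.23 in carriers and 0.11 ± 0.17 in non-carriers (SD, n = 6 each), a difference of 0.80. For Slit1 to Slit2 the difference was 0.55, and for Slit3 to Slit1 it was 0.25. These ratios restate the scores above and were chosen after the values had been seen, so they are given without a test. Slit2 holds 299 kb of intron, a length between the 137 kb of Slit1 and the 581 kb of Slit3.

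The Robo receptors did not pass the test. Robo2 was constant, Robo1 had a log2 difference of 0.10 (adjusted p = 0.376) and Robo3 one of 0.00 (adjusted p = 0.994). Robo4 scored 0.025 to 0.037 in WT and 0.038 to 0.051 in N40K mice without overlap, but 0.029 to 0.048 in 5xFAD and 0.033 to 0.046 in dTg mice with overlap, and its averaged difference of 0.33 had an adjusted p of 0.185. With each library centred on its own median, the differences of Slit2, Robo1 and Robo3 turned to -0.03, -0.04 and -0.13.

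**Figure D2:**
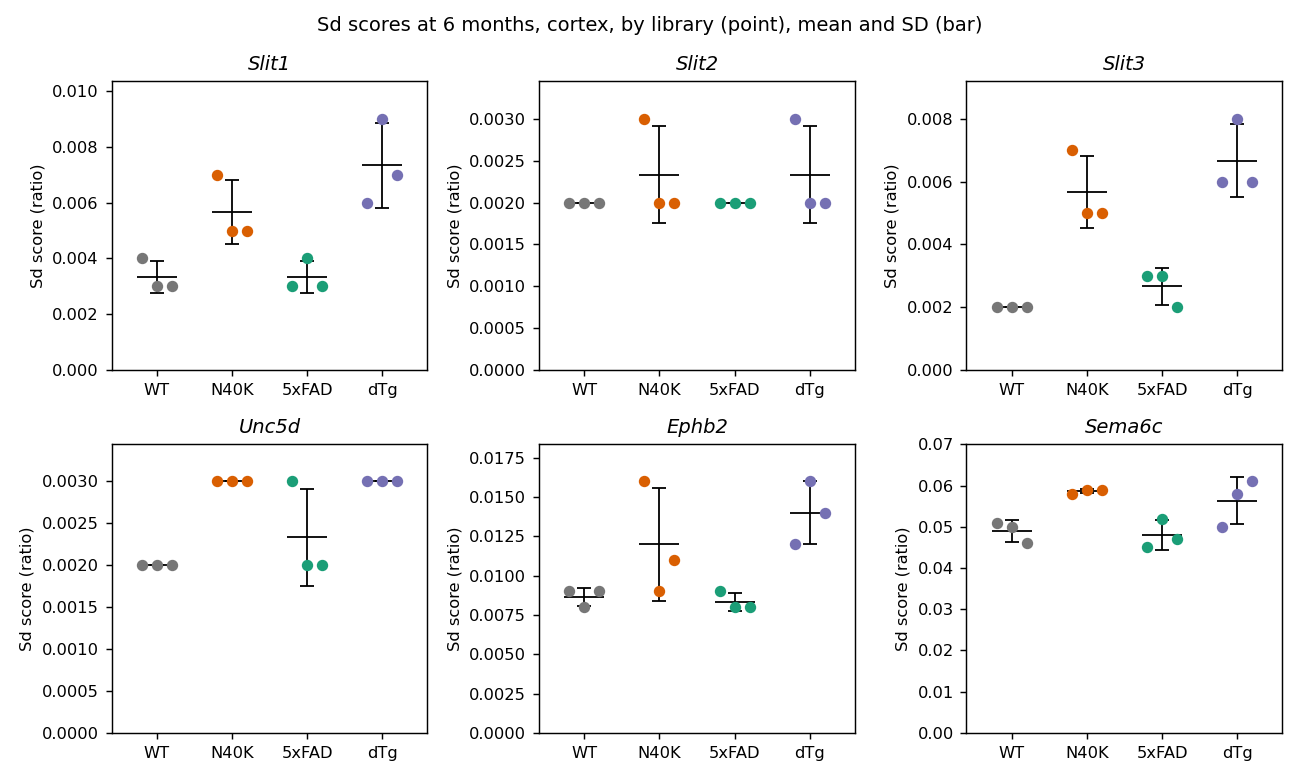
Sd score (ratio, vertical axis) in each 6-month library, 1 point per library from replicate 1 at the left to replicate 3, with the mean and SD of the 3 libraries of each genotype, for the 5 members that rose with N40K and for Slit2. Slit1 and Slit3 were higher in all 6 carriers, while Slit2 stayed at 0.002 or 0.003.

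Among the receptors of netrins, Unc5d (ENSMUSG00000063626), a repulsive receptor, rose by a single rounding step. It scored 0.003 in all 6 carriers, 0.002 in all 3 WT libraries and 0.003, 0.002 and 0.002 in 5xFAD. The averaged log2 difference was 0.27, 1.2-fold, with a limma adjusted p of 0.0183, and it did not pass with centred libraries (adjusted p = 0.2) or without N40K replicate 1 and dTg replicate 2 (adjusted p = 0.0695). Unc5a, Unc5c and Dcc had differences of 0.11, 0.15 and 0.05 that did not pass, and Unc5b and Neo1 did not move. The 4 netrins lay between -0.07 in Ntn3 and 0.12 in Ntn1, and both netrin-Gs at 0.10 and 0.11.

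Of the semaphorins, Sema6c (ENSMUSG00000038777), a transmembrane ligand of plexin As, scored 0.051, 0.05 and 0.046 in WT and 0.045, 0.052 and 0.047 in 5xFAD. It scored 0.058, 0.059 and 0.059 in N40K mice and 0.05, 0.058 and 0.061 in dTg mice, where replicate 1 overlapped the non-carriers. Carriers averaged 0.0575 ± 0.00383 against 0.0485 ± 0.00288 (SD, n = 6 each), 1.18-fold, with a limma adjusted p of 0.0294. With centred libraries the log2 difference was 0.10 and did not pass (adjusted p = 0.334), and without N40K replicate 1 and dTg replicate 2 the adjusted p was 0.112. Of the 12 libraries, leaving out 1 ended the call in 9 cases, all but N40K replicate 2, 5xFAD replicate 2 and dTg replicate 1, with an adjusted p of up to 0.0694. Sema6c was the 1 of the 5 with short introns, 7.63 kb.

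The remaining 19 semaphorins, both neuropilins and all 9 plexins did not pass. Nrp2, a co-receptor of class 3 semaphorins, scored 0.008 to 0.011 in non-carriers and 0.01 to 0.014 in carriers, a difference of 0.25 (adjusted p = 0.0828). Sema4d, a ligand of Plxnb1, differed by 0.28 (adjusted p = 0.0865) and Plxna2 by 0.16 (adjusted p = 0.102). The high-scoring members Plxna3, Sema3b and Sema4c differed by -0.06, 0.00 and -0.03, and Plxnd1 by -0.05. With centred libraries the split of the members called became 3 higher, Slit1, Slit3 and Ephb2, and 1 lower, Plxnd1.

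In the ephrin system, Ephb2 (ENSMUSG00000028664), an ephrin-B receptor known from excitatory synapses, scored 0.008 or 0.009 in all 6 non-carriers. N40K mice scored 0.016, 0.009 and 0.011 and dTg mice 0.012, 0.016 and 0.014, so 5 of 6 carriers lay above every non-carrier and N40K replicate 2 equalled their highest. Carriers averaged 0.013 ± 0.00283 against 0.0085 ± 0.000548 (SD, n = 6 each), a log2 difference of 0.49 or 1.41-fold, with a limma adjusted p of 0.0277. Leaving out WT replicate 1 or 2, 5xFAD replicate 2 or 3, or dTg replicate 2 or 3 ended this call, with an adjusted p of up to 0.068. The other Eph receptors that came nearest were Ephb1 at 0.28 (adjusted p = 0.0855), Epha7 at 0.25 (adjusted p = 0.0933), Epha10 at 0.28 (adjusted p = 0.105) and Epha3 at 0.23 (adjusted p = 0.155). The 7 ephrins lay between -0.06 in Efna1 and 0.25 in Efna2, and none passed.

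**Figure D3:**
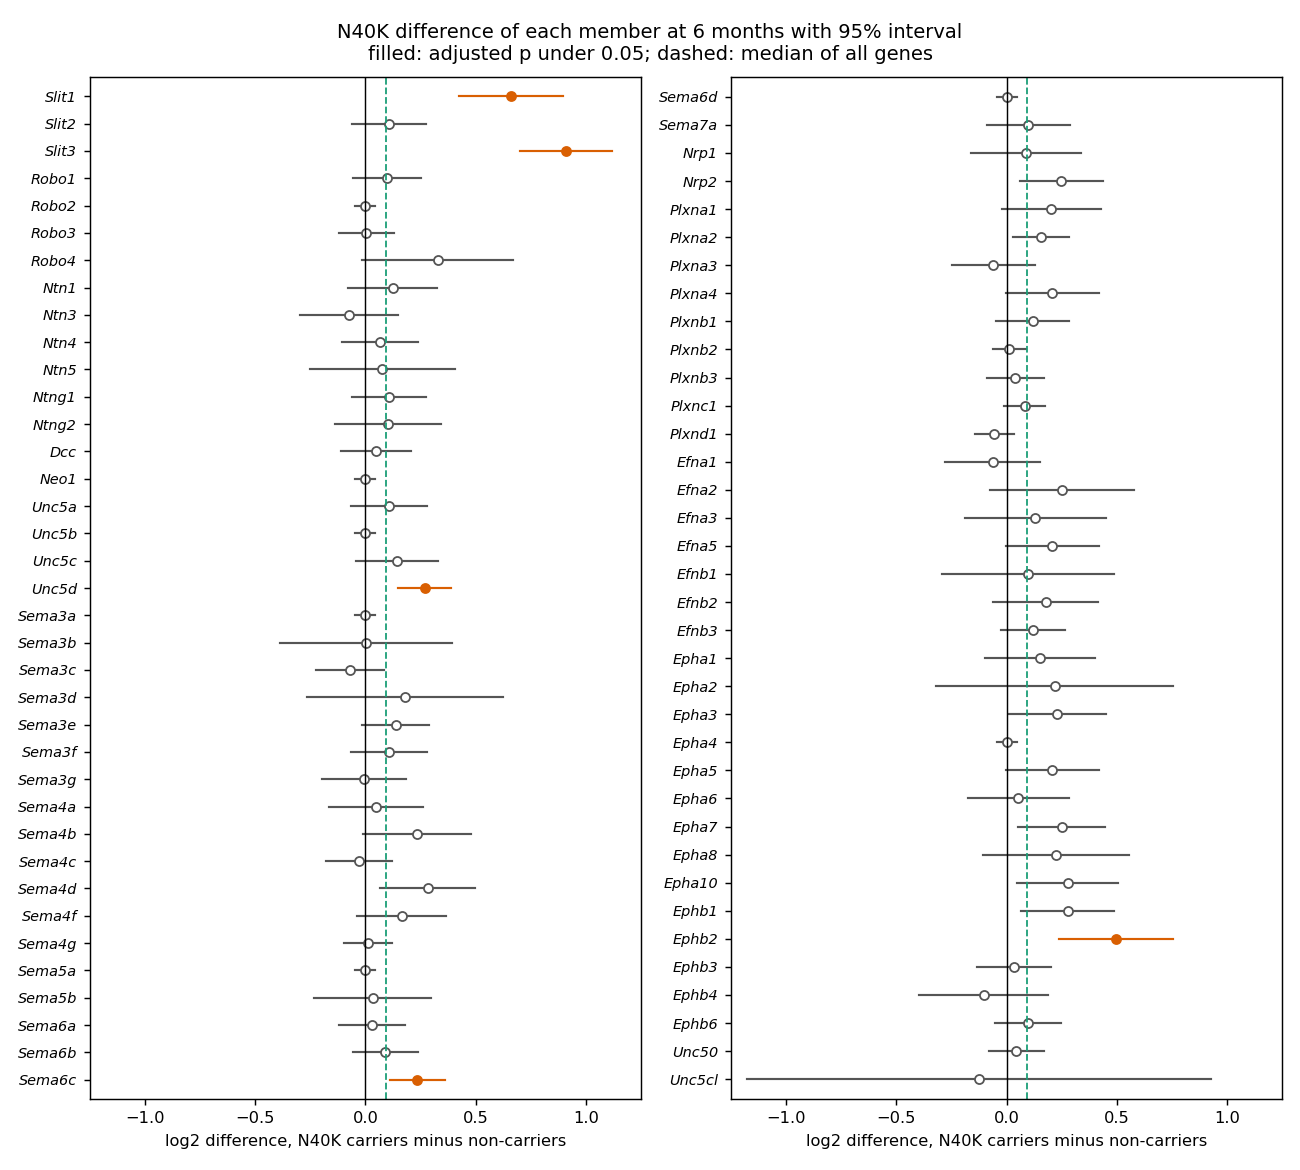
Log2 difference in Sd score between N40K carriers and non-carriers (horizontal axis, 6 libraries each) with its 95% interval for all 73 members, in order of ligand and receptor families. Filled points passed the test, the dashed line is the median of all genes at 0.09, and Slit3 at 0.91 and Slit1 at 0.66 stand furthest to the right.

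By role, the median difference was 0.10 over the 36 ligands, of which 3 rose, and 0.11 over the 35 receptors, of which 2 rose. By score, 4 of 41 members under a mean score of 0.02 rose, or 9.76%, against 13.5% of all such genes, and 1 of 32 at or above it, or 3.12%, against 9.07%. By length, 4 of 32 members with at least 100 kb of intron rose, or 12.5%, against 17.1% of all such genes, and 1 of 38 shorter members, or 2.63%, against 9.8%. Each share was near or below that of all genes in its class. Across members the N40K difference had a Pearson r of 0.218 and a rho of 0.159 with log intron length (n = 70), against 0.19 and 0.232 across all genes.

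In the pairs of genotypes, Slit3 was the 1 member called in N40K against WT, at 0.93 or 1.9-fold (limma adjusted p = 0.0336), where 0.153% of all genes rose. It was also the 1 member called in dTg against 5xFAD, at 0.89 or 1.86-fold (adjusted p = 0.0385), where 0.28% of all genes rose. In dTg against WT, Slit3 at 1.11 or 2.15-fold (adjusted p = 0.0102) and Slit1 at 0.80 or 1.74-fold (adjusted p = 0.0408) rose, with 1.41% of all genes. Leaving out any 1 of the 6 libraries ended the Slit3 call in N40K against WT (adjusted p from 0.0517 to 0.132). In dTg against 5xFAD, 5 of 6 omissions ended it (adjusted p up to 0.163), while in dTg against WT it passed in all 6. The Slit1 call in dTg against WT was lost in 5 of 6 omissions (adjusted p up to 0.141).

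Members whose 3 carriers all lay above the 3 controls numbered 7 in N40K against WT (Slit1, Slit3, Unc5d, Robo4, Sema6c, Plxna2 and Nrp2), beside 16.8% of all genes. In dTg against 5xFAD they numbered 5 (Slit1, Slit3, Ephb2, Epha7 and Sema4b), beside 14.4% of all genes. These comparisons share no library, and Slit1 and Slit3 were the 2 members in both, 28.6% of the first list and 40% of the second. Over all genes, 1050 were in both, 39.8% of the first and 46.5% of the second, so the members' shares were not above those of all genes. In dTg against WT the number was 7, with Efnb3, Ephb2, Plxna2, Sema4b, Slit1, Slit3 and Unc5d, beside 18.4% of all genes.

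No member was called for the interaction of N40K and 5xFAD (limma, 0 of 73, with 0.0191% of all genes), and 1 passed at an unadjusted p under 0.05, beside 2.87% of all genes. That was Unc5c, a netrin receptor, at 0.44 (limma adjusted p = 1). For Slit3 the interaction was -0.04, with a 95% interval from -0.45 to 0.38, and for Slit1 0.28, from -0.19 to 0.75. For Ephb2 it was 0.26, from -0.26 to 0.78. All 3 intervals include 0 and are wide beside the N40K differences themselves.

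In 5xFAD against WT, 0 of 73 members were called (limma, 0.0191% of all genes) and 1 had an unadjusted p under 0.05, beside 4.39% of all genes. Plxna2, a plexin A receptor, scored 0.007, 0.008 and 0.008 in WT and 0.01, 0.009 and 0.009 in 5xFAD, a difference of 0.23 (limma adjusted p = 0.962). The groups did not overlap, but the distance was 1 to 3 rounding steps.

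In dTg against N40K, 0 of 73 members were called (limma, 0.0191% of all genes) and 5 had an unadjusted p under 0.05, beside 5.14% of all genes. Unc5c scored 0.004 in all 3 N40K libraries and 0.005, 0.006 and 0.006 in dTg, a difference of 0.35 (limma adjusted p = 0.869). For the 5xFAD effect averaged over N40K status, 0 members were called (limma, 0.0446% of all genes) and 1 had an unadjusted p under 0.05, beside 6.17% of all genes. That was Plxnb2, at 0.0867 ± 0.0028 with 5xFAD and 0.0918 ± 0.00299 without (SD, n = 6 each), a difference of -0.08 (limma adjusted p = 0.753).

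At 12 months, 0 of 70 members were called between Tau P301S and WT (limma, 0.00658% of all genes), and 2 had an unadjusted p under 0.05, beside 8.28% of all genes. Both were ephrin-A receptors and higher in Tau P301S, 2.86% of the members against 2.53% of all genes in that direction, and 0 were lower, against 5.75%. Epha10 scored 0.037, 0.049, 0.042 and 0.03 in WT, and 0.039 at the lowest, 0.058 at the median and 0.074 at the highest in Tau P301S, a log2 difference of 0.51 or 1.42-fold (limma adjusted p = 0.525). Epha5 scored 0.002, 0.002, 0.002 and 0.003 in WT. In Tau P301S replicates 1 to 6 it scored 0.003, 0.006, 0.006, 0.003, 0.003 and 0.003, with a median of 0.003. Its difference was 0.47 (limma adjusted p = 0.552), and 0.38 without Tau P301S replicate 2 or without replicate 3. In both genes the groups overlapped, Epha5 through the 1 WT library at 0.003.

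The Slits and Robos lay close together in these mice, with differences from -0.04 in Slit2 to 0.20 in Robo1. Slit3 scored 0.001 in all 4 WT libraries and in 5 of 6 Tau P301S libraries, and 0.002 in replicate 2. The members' median difference was 0.04 against -0.02 over all genes, and 39 members lay above 0, 30 below and 1 at 0, so 55.7% were above 0 against 43.3% of all genes. The median score over the members ran from 0.009 to 0.011 in WT and from 0.0095 to 0.0125 in Tau P301S libraries. By role, the median was 0.07 over 35 receptors and 0.01 over 34 ligands.

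In the receptors of largest difference, single libraries stood high. Unc5c scored 0.003, 0.003, 0.004 and 0.007 in WT and 0.007, 0.04, 0.019, 0.005, 0.004 and 0.004 in Tau P301S replicates 1 to 6, a difference of 0.89 (adjusted p = 0.74). Without Tau P301S replicate 2 it was 0.51 (adjusted p = 0.932). Its co-receptor Dcc scored 0.006 to 0.009 in WT and 0.013, 0.05, 0.006, 0.015, 0.008 and 0.007 in Tau P301S, a difference of 0.66 (adjusted p = 0.79), and 0.30 without replicate 2.

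The same library was also high in Epha5, Ephb2 and Epha6. Ephb2 scored 0.002, 0.002, 0.003 and 0.005 in WT and 0.006, 0.01, 0.01, 0.004, 0.004 and 0.003 in Tau P301S, a difference of 0.66 (adjusted p = 0.596), and 0.53 without replicate 2 or without replicate 3. Epha6 scored 0.005 in replicate 2 and 0.001 in the other 5 Tau P301S libraries. Replicate 2 was the single highest Tau P301S library in 19 of 55 members, or 34.5%, against 21.1% of all genes. Its part in the other differences was not tested beyond leaving it out.

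**Figure D4:**
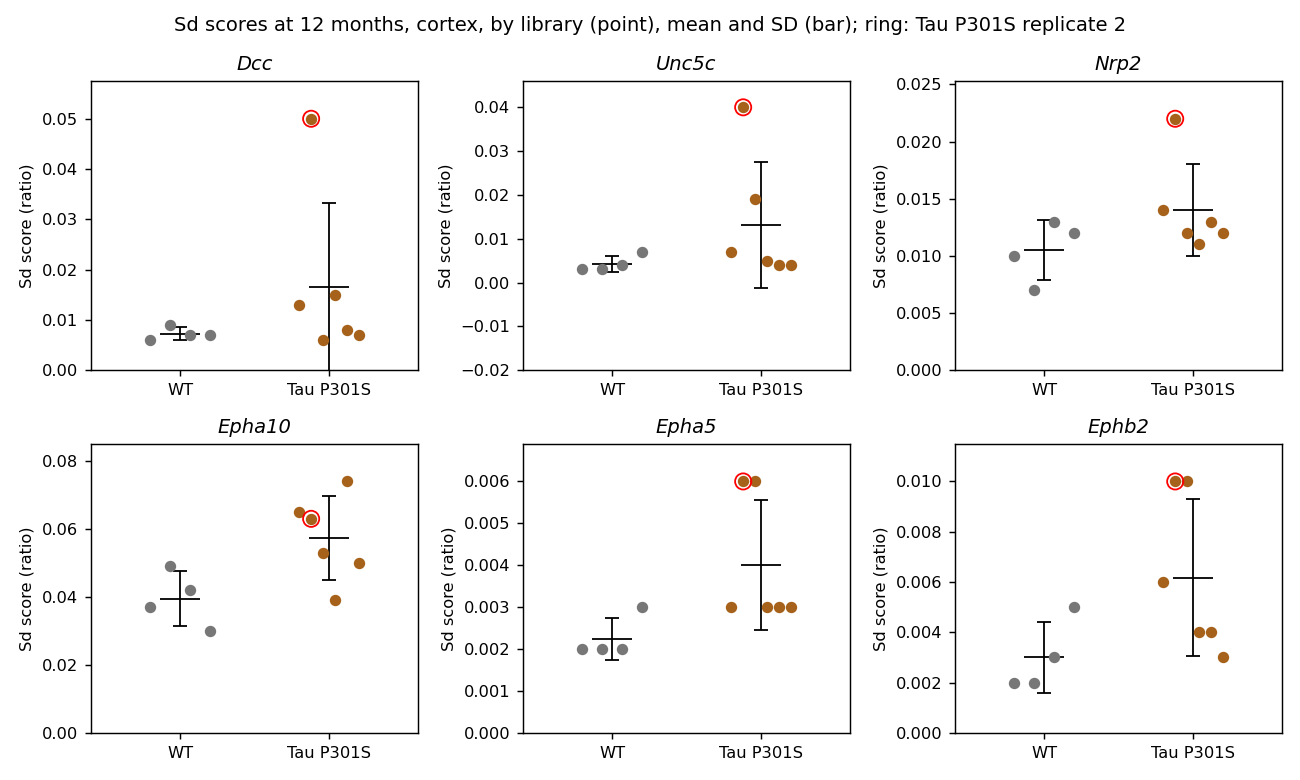
Sd score (ratio, vertical axis) at 12 months in the 4 WT and 6 Tau P301S libraries, 1 point per library in order of replicate, with mean and SD, for 6 receptors, and a ring marks Tau P301S replicate 2. In Dcc and Unc5c that library stands at 0.05 and 0.04, above all others, and in Epha10 and Epha5 the groups overlap.

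The lowest differences were -0.49 in Epha1 and -0.46 in Sema4b, neither of which passed (adjusted p = 0.822 and 0.674). Epha1 scored 0.157, 0.41, 0.195 and 0.187 in WT and 0.072 to 0.284 in Tau P301S, so the WT mean rested in part on replicate 2. Sema4b scored 0.029, 0.028, 0.046 and 0.06 in WT and 0.018 to 0.038 in Tau P301S. Over all genes, the medians of WT replicates 1 to 4 were 0.013, 0.013, 0.017 and 0.017, against 0.014 to 0.016 in Tau P301S. The part of this split between WT libraries in the differences was not tested. The N40K and Tau tables were made separately, so their differences were not tested against each other.

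Set side by side, the WT scores of both tables kept most of the members' order. Across 70 members the log scores had a Pearson r of 0.851 and a Spearman rho of 0.835, against 0.808 and 0.821 across 12948 genes. The median ratio of 12 to 6 months was 0.798 over the 69 members with both scores above 0, against 0.632 over all genes, and 45 members were lower at 12 months and 21 higher. The lower ones were 65.2% of the 69, against 72.7% of all genes. Age, cross and table cannot be told apart here.

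A ratio of at least 5 in either direction was found in 7 members. Sema6d stood at 0.002 in every 6-month WT library and at 0.0758 ± 0.00465 (SD, n = 4) at 12 months, a ratio of 37.9. Neo1 and Unc5b went from 0.002 to 0.029 and 0.0108, ratios of 14.5 and 5.38. These 3 were 4.35% of the members, against 2.61% of all genes.

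In the other direction, Sema4a went from 0.057 to 0.00525, Ntng2 from 0.037 to 0.00525, Efnb1 from 0.027 to 0.004 and Unc5d from 0.002 to 0.00025, 5.8% of the members against 6.29% of all genes. Plxna4 was listed at 0 in all 4 WT libraries of 12 months. The Slits differed from each other here too, since Slit2 stood at 0.0085 and Slit3 at 0.001 at 12 months while both stood at 0.002 at 6 months.

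**Figure D5:**
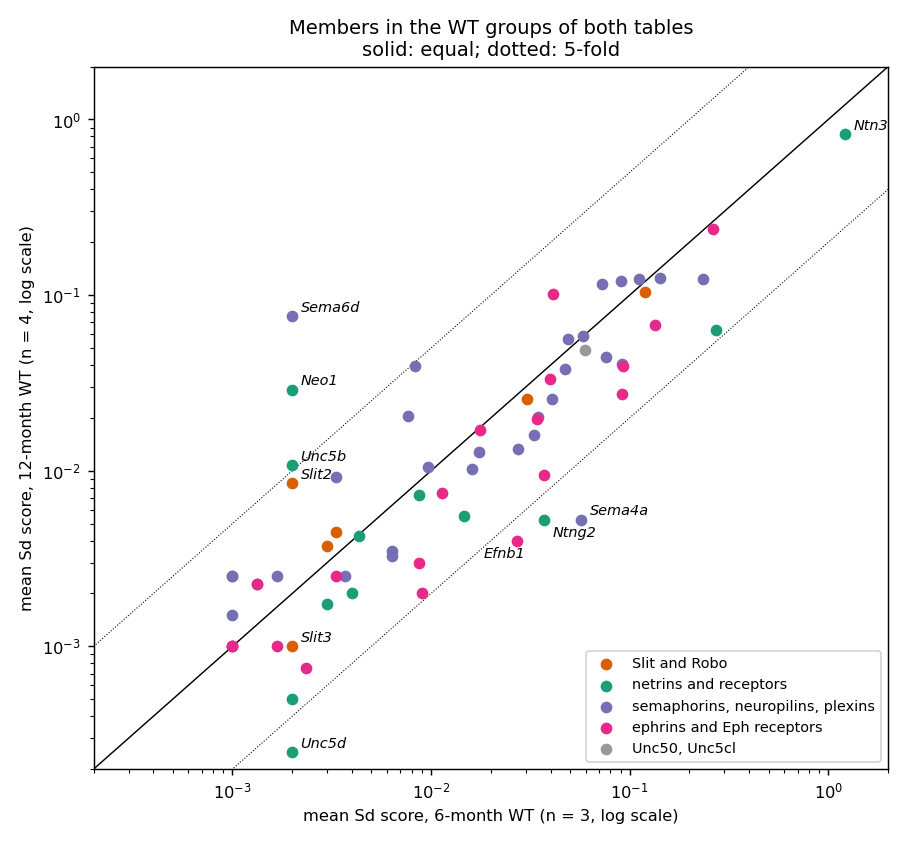
Mean Sd score of each member in the 6-month WT libraries (horizontal log axis, n = 3) and in the 12-month WT libraries (vertical log axis, n = 4), with a solid line at equality and dotted lines at a ratio of 5. Sema6d, Neo1 and Unc5b lie above the upper line and Sema4a, Ntng2, Efnb1 and Unc5d below the lower one, and Plxna4, listed at 0, is not drawn.

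Of 74 other genes of the axon guidance pathway, among them adaptors, kinases and cytoskeletal effectors downstream of these receptors, 72 were in the 6-month table. With N40K, 7 rose and 1 fell, or 9.72% and 1.39%, near the 10.8% and 0.936% of all genes. Pak3, a kinase activated by Rac and Cdc42, scored 0.001 in all 6 non-carriers and 0.002 in all 6 carriers, 1.33-fold (limma adjusted p = 1.1e-05), which is 1 rounding step. Its rounded scores did not vary within a group, so this p-value rests on the spread that limma takes from other genes. Abl2, a kinase that acts on the cytoskeleton, rose from 0.00467 ± 0.000516 to 0.00683 ± 0.000753 (adjusted p = 0.0104). Flrt1, of a family of adhesion proteins that bind Unc5 receptors, rose from 0.131 ± 0.00809 to 0.191 ± 0.0277, 1.45-fold (adjusted p = 0.0105, SD, n = 6 each).

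The other 4 that rose were Mical3, Farp1, Cdon and Pak2, by 1.12- to 1.33-fold, and Lrrc4, a synaptic ligand of netrin-Gs, fell to 0.875 of its level. Pak3 was the 1 gene of this list called in N40K against WT and in dTg against 5xFAD. In dTg against WT it was called with Abl2 and Flrt1, and no gene of the list was called in the other 5 comparisons. With centred libraries Pak3 passed in none of these 3 pairs (limma adjusted p = 0.136, 0.107 and 0.105). Abl2 with centred libraries did not pass in dTg against WT (adjusted p = 0.121) or in the averaged comparison (adjusted p = 0.0507). With pseudocount 0.01, Pak3 did not pass in N40K against WT (adjusted p = 0.0658) or dTg against 5xFAD (adjusted p = 0.0611), but passed in dTg against WT (adjusted p = 0.0373). In dTg against WT, leaving out any 1 of the 6 libraries ended the Abl2 call (adjusted p up to 0.133), and 5 of 6 omissions ended that of Flrt1 (adjusted p up to 0.139). In the Tau comparison 7 of 71, or 9.86%, had an unadjusted p under 0.05, near the 8.28% of all genes, and 0 passed limma's adjusted test. Of these 7, 6 were lower, or 8.45% against 5.75% of all genes, and 1 was higher, or 1.41% against 2.53%.

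In the averaged N40K comparison, 0 of 34 listed cell type markers passed as higher and 4, or 11.8%, as lower, against 10.8% and 0.936% of all genes. Of the lists, 0 of 8 excitatory neuron, 0 of 6 inhibitory neuron, 0 of 6 astrocyte, 0 of 3 oligodendrocyte, 0 of 6 microglia and 0 of 5 endothelial and pericyte genes rose, and 1 each of the inhibitory neuron, astrocyte, oligodendrocyte and endothelial lists fell. Their median log2 differences were 0.12 in excitatory neurons, 0.09 in inhibitory neurons, -0.07 in astrocytes, 0.03 in oligodendrocytes, -0.02 in microglia and -0.06 in endothelial cells and pericytes, against 0.09 over all genes. The markers' part in the members' results was not tested.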

How the data were processed

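Cortical poly(A) RNA was sequenced with stranded libraries, per the labels, and the submitters' processing notes name CASAVA, STAR, BWA, bedtools 2.16.1 and the mm9 build. The authors deposited Sd scores, a ratio per gene and library, in 1 table per age. Its formula, counter, annotation and depth are not given in the sources used here. Groups came from the sample titles.

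Scores were analysed as log2(score + 0.002), the 5th percentile of values above 0, with limma 3.58.1 in R 4.3.3, fitting each table whole with a term for each group. P-values were adjusted by Benjamini-Hochberg over all genes of a table, with a two-sided threshold of 0.05, for 9 comparisons. The fit was tested on simulated data, with changes set only in genes with a mean score of at least 0.02. It therefore does not show how well changes in lower scores, as in Slit1, Slit3, Ephb2 and Unc5d, are recovered. Values are given for members called, for the member of smallest p where none was called, for the highest member of each family, and for all Slits and Robos. Members outside this rule with per-library values, Epha5 and Epha6 among them, were singled out after their values were seen. The members, the pathway list and the cell type marker lists (excitatory and inhibitory neurons, astrocytes, oligodendrocytes, microglia, endothelial cells and pericytes) were chosen with earlier results of these data known. Intron lengths are from GENCODE M21, which is on another build, so no coordinates are printed. Alternatives were library centring, other pseudocounts, filters, a mean-variance trend, fewer groups, a replicate block and omitted libraries.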

Additional observations from a re-analysis of the deposited data

Results flagged for a closer look

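Single scores that stood apart from the rest of their group by Dixon's criterion at the 95% level were found in 9 of the 60 groups of 4 or 6 libraries looked at, over 30 members. Chance gives about 1 in 20 for unrounded values, a rate that 9 of 60 cannot be read against here, since the scores are rounded. Some members were also looked at because of their scores or test results, Epha10 through its p-value in the 12-month comparison. Tau P301S replicate 2 was the library apart in 3 of them: Dcc at 0.05 with the next library at 0.015, Nrp2 at 0.022 with the next at 0.014, and Slit3 at 0.002 with the other 5 at 0.001. Tau P301S replicate 3 stood apart in Sema5b, at 0.064 with the next at 0.037, and replicate 6 in Unc5a, at 0.006 with the others at 0.005. Among the 12-month WT libraries, Epha1 reached 0.41 in replicate 2 with the next at 0.195, Sema4c was lowest in replicate 1 at 0.108 with the next at 0.129, Plxnd1 was lowest in replicate 4 at 0.018 with the others at 0.021, and Unc5d was 0.001 in replicate 4 with the others at 0. The scores of Slit3, Unc5a and Unc5d differ by 1 step of 0.001, the last decimal deposited. Groups of 3 libraries, all those of 6 months, were not looked at in this way.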

How the results depend on the processing

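The averaged N40K count of 5 became 3 without both libraries of highest median and 1 among genes with a mean score of at least 0.02. With centred libraries it was 4, and without genes that differ by 1 rounding step 4, Unc5d being left out. For N40K against WT, the count of 1 became 0 with centred libraries, with pseudocount 0.01, with a mean score of at least 0.02 and without genes on 1 rounding step. For dTg against 5xFAD, 1 became 0 under these 4 settings and with only the groups compared. With only the groups compared, Unc5d was called in place of Slit3 (adjusted p = 0.0541) in N40K against WT and in place of Slit1 (adjusted p = 0.104) in dTg against WT, at equal counts. For dTg against WT, 2 became 1 with pseudocount 0.01 and 0 with a mean score of at least 0.02. The filter on mean score leaves out Slit1, Slit3, Ephb2 and Unc5d by construction, and the other causes were not tested. With 1 library left out at a time, the count ran from 3 to 9 for the averaged N40K effect, from 0 to 0 for N40K against WT, 5xFAD against WT and Tau P301S against WT, from 1 to 2 for dTg against WT, and from 0 to 1 for the other 4. Without dTg replicate 3, Sema3e took the place of Slit1 in dTg against WT and of Slit3 in dTg against 5xFAD. The 9 came without dTg replicate 1, and 3 without WT replicate 1, WT replicate 2, 5xFAD replicate 3 or dTg replicate 2. Slit1, Slit3 and Unc5d passed in all 12 omissions of the averaged effect, Ephb2 in 6 and Sema6c in 3. Differences that turned sign were Slit2 at -0.0279, Robo1 at -0.0378 and Robo3 at -0.13 with centred libraries, and Robo3 at -0.014 without both libraries of highest median and from -0.0382 to 0.0345 over the omissions.

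Replicate numbers did not pair the libraries, since same-numbered libraries correlated from -0.2 to 0.0708 at 6 months and from -0.265 to 0.191 at 12 months in their deviations from the group means. With the replicate block the counts were 3 for the averaged N40K effect, 0 for N40K against WT, 0 for dTg against 5xFAD and 1 for dTg against WT.

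Depth was not given, and scores of 0.001 to 0.009 carry 1 significant digit, all scores of Slit1 and Slit3 among them. A difference of 1 step in the lowest members cannot be resolved further.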
